A study of Mus musculus with 13 samples.

Results

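Cyct, Fmr1nb and Usp26 are 3 mouse genes known for their expression in testis, and they were followed here on every array of a study of pluripotent cell lines. They are 3 of the 14807 genes that have a row of their own in the deposited expression table, and each of them has exactly 1 such row. They were selected on the array signal itself, which was higher in the embryonic stem (ES) line MPSVII ES than in the ES line B6 Blu ES, so that difference is given as a description and was not tested. The genes and the lists used below were picked with earlier results of these data known.

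Amplified RNA was measured on 13 arrays of the type Affymetrix Mouse Exon 1.0 ST. The arrays came from induced pluripotent stem (iPS) clones 1, 2, 5 and 6, from MPSVII ES, from B6 Blu ES and from embryonic fibroblasts (MEF), with 1 array for B6 Blu ES and 2 for each other line. The clones were made by transducing fibroblasts with a lentivirus for the OSK factors, and after picking they were expanded on feeder layers of MEF. The strain is given as C57Bl/6 for the clones, MPSVII ES and MEF, and as C57BL/6NTac for B6 Blu ES. Titles and design text name mucopolysaccharidosis type VII (MPSVII), a lysosomal storage disease, for the clones, MPSVII ES and MEF, while the source field of the clones and MEF gives wildtype B6 embryos. No label settles that conflict, and no label gives the sex of a line. Each iPS line is a single clone, and nothing says that the arrays of a line came from separate cultures, so p-values measure only the spread between these arrays. B6 Blu ES has no replicate, and the spread of the other lines was assumed for it.

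The 3 proteins belong to different pathways. Cyct encodes the testis form of cytochrome c, the small haem protein that carries electrons between complexes III and IV of the respiratory chain and triggers apoptosis when it leaves the mitochondrion. Usp26 encodes an X-linked deubiquitinase, related to Usp29 and Usp37, that removes ubiquitin from proteins such as the androgen receptor. Fmr1nb, next to the fragile X gene Fmr1, encodes a membrane protein known in humans as the cancer/testis antigen NY-SAR-35. Many germline genes are silenced in somatic cells by methylation of their promoters, and ES cells are known to transcribe some of them.

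In the GRCm38.p6 annotation of RefSeq, Cyct lies on chromosome 2 (chr2:76353942-76360453), Fmr1nb on the X chromosome (chrX:68761839-68804561) and Usp26 also on the X chromosome (chrX:51752667-51801233). The promoter windows of the 3 genes are shown because the genes share a difference between lines, and that of Smc1b because its signal follows Fmr1nb and Usp26 most closely, as described further on. Smc1b encodes a cohesin subunit of meiosis. Each window is the RefSeq GRCm38.p6 sequence from 250 bases before to 50 bases after the annotated start, 5′ to 3′ on the strand of the gene. Capitals mark CCAAT or its extension CCAATCAG, GCGGGA on either strand, and the palindrome TCTCGCGAGA. The windows are chr2:76360404-76360703 on the minus strand for Cyct, chrX:68761589-68761888 on the plus strand for Fmr1nb, chrX:51801184-51801483 on the minus strand for Usp26 and chr15:85131908-85132207 on the minus strand for Smc1b.
Cyct: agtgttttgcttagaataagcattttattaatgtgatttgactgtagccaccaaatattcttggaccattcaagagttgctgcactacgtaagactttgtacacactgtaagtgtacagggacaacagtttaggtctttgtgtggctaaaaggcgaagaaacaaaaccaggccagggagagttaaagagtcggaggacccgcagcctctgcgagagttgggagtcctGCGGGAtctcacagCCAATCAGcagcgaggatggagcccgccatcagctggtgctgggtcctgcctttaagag
Fmr1nb: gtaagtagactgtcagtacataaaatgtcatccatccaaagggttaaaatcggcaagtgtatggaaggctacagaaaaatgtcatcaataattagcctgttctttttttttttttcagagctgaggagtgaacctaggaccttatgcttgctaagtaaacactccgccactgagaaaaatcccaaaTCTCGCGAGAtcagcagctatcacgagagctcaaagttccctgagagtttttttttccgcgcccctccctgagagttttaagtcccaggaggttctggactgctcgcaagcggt
Usp26: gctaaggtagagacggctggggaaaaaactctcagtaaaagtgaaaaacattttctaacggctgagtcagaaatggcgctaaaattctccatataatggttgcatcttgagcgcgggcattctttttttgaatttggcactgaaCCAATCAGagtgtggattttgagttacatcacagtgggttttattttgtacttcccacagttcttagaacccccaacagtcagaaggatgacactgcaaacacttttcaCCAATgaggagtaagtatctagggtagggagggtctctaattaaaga
Smc1b: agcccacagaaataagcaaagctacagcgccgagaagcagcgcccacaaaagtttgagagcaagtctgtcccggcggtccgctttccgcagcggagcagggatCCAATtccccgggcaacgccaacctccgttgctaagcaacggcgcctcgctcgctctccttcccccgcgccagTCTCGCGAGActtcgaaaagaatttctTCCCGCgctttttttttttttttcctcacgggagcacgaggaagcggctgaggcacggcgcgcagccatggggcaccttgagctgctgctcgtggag

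CpG dinucleotides, the sites of DNA methylation, were counted in each window. There are 8 in the window of Cyct, 9 in that of Fmr1nb and 5 in that of Usp26, against a median of 7 over 32851 promoter windows of the same length. The window of Smc1b holds 29. Motifs were searched on both strands and were chosen after the sequences had been read, so their matches only describe the letters. CCAATCAG is present in the windows of Cyct and Usp26 and in 4.1% of all windows. The shorter CCAAT, which every CCAATCAG contains, is present in the windows of Cyct, Usp26 and Smc1b and in 37.4% of all. TCTCGCGAGA was taken as the longest palindrome shared by the windows of Fmr1nb and Smc1b, so its presence in both was fixed beforehand. It is present in 0.466% of all windows. CGCG is present in the windows of Fmr1nb, Usp26 and Smc1b and in 38% of all. GCGGGA is present in the windows of Cyct and Smc1b and in 20% of all. The E-box CACGTG is present in none of the 4 windows and in 7.15% of all. None of these motifs is present in the windows of all 3 testis genes, and no methylation or binding was measured in this series.

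All values below are the deposited log2 signals, on which a step of 1 is a doubling. Probes differ between genes, so levels are compared only within a gene. Cyct signal was 9.44 and 9.91 in clone 1, 8.17 and 8.15 in clone 2, 9.55 and 9.12 in clone 5, and 10.30 and 10.26 in clone 6. It was 10.15 and 9.83 in MPSVII ES, 7.13 on the B6 Blu ES array, and 2.05 and 1.97 in MEF. The pluripotent lines were thus all far above MEF, with B6 Blu ES the lowest among them and clone 2 the next lowest.

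Fmr1nb signal was 7.54 and 8.13 in clone 1, 8.91 and 8.70 in clone 2, 8.49 and 7.996 in clone 5, and 8.17 and 8.18 in clone 6. It was 7.10 and 7.44 in MPSVII ES, 3.40 on the B6 Blu ES array, and 4.01 and 4.004 in MEF. Here the B6 Blu ES array was below both MEF arrays, and the 8 clone arrays were all above the MPSVII ES arrays.

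Usp26 signal was 6.83 and 7.07 in clone 1, 6.72 and 6.52 in clone 2, 7.80 and 7.52 in clone 5, and 7.57 and 7.66 in clone 6. It was 6.81 and 6.98 in MPSVII ES, 3.78 on the B6 Blu ES array, and 2.86 and 3.09 in MEF. The B6 Blu ES array lay just above MEF, and every clone and MPSVII ES array lay well above both.

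**Figure D1:**
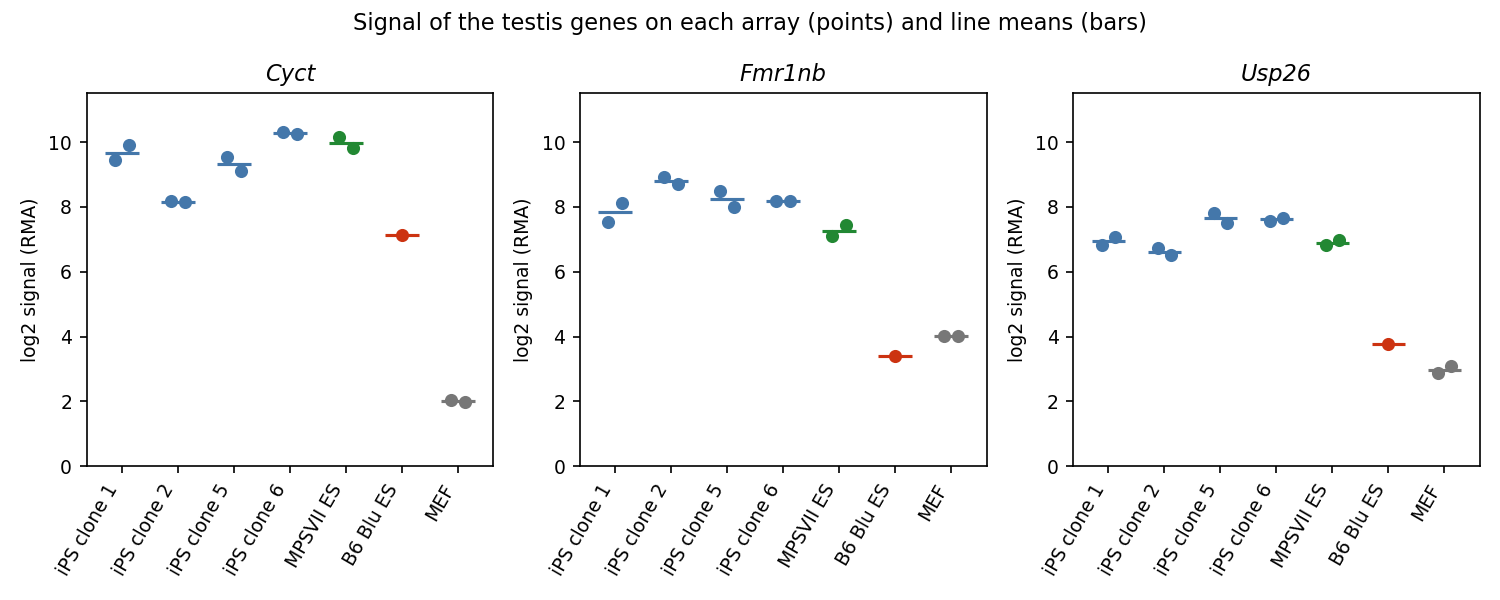
The log2 signal (vertical axis) of Cyct, Fmr1nb and Usp26 is plotted for each array (points) and each line (bars at the mean), with the lines along the horizontal axis. On the B6 Blu ES array Cyct lay at 7.13, between the other pluripotent lines and MEF, while Fmr1nb at 3.40 lay below MEF.

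In order of line means, Cyct was highest in clone 6, followed by MPSVII ES, clone 1, clone 5, clone 2, B6 Blu ES and MEF. In that order the arrays of MPSVII ES overlapped those of clone 1, and those of clone 1 overlapped those of clone 5. Fmr1nb was highest in clone 2, followed by clone 5, clone 6, clone 1, MPSVII ES, MEF and B6 Blu ES, and only the arrays of clones 5 and 6 overlapped as neighbours. Usp26 was highest in clone 5, followed by clone 6, clone 1, MPSVII ES, clone 2, B6 Blu ES and MEF. Its neighbours with overlapping arrays were clones 5 and 6, and clone 1 and MPSVII ES. The residual SD within lines was 0.21 for Cyct, 0.25 for Fmr1nb and 0.15 for Usp26, against a median of 0.25 over all rows tested.

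MEF, a control of the study and the cell type from which the clones were made, gave a comparison outside the selection rule. The genes were still picked with earlier results of these data known, so its tests are not independent of that knowledge. Mean Cyct signal was 9.36 in the clones and 2.01 in MEF, a difference of 7.35 ± 0.18 on the log2 scale (SE), or 164-fold. Fmr1nb averaged 8.27 in the clones and 4.01 in MEF, 4.26 ± 0.19 apart (19.2-fold). Usp26 averaged 7.21 in the clones and 2.97 in MEF, 4.24 ± 0.15 apart (18.9-fold). All 3 genes rose in the clones. The table carries no detection calls, so the MEF signals are not shown to be above background, and these folds are between measured signals.

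The test was limma's moderated test of 8 clone against 2 MEF arrays. It took its spread from a fit to all 13 arrays, with adjustment by the Benjamini-Hochberg method over all 16661 rows tested. Its adjusted p was 7.52e-09 for Cyct, 7.87e-08 for Fmr1nb and 1.8e-08 for Usp26. Of all rows, 7.78% were called higher in the clones at an adjusted p under 0.05. For each of the 3 genes the lowest clone array was above the highest MEF array, as it was for 7.63% of rows. In bulk RNA, fewer cells that express a gene and less RNA per cell cannot be told apart.

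Each clone taken alone also passed this test against MEF for all 3 genes. For Cyct the log2 difference was 7.67 in clone 1, 6.15 in clone 2, 7.33 in clone 5 and 8.27 in clone 6. For Fmr1nb it was 3.83, 4.80, 4.24 and 4.17 in the same clones, and for Usp26 3.98, 3.65, 4.68 and 4.64. Clone 2 thus had the smallest difference for Cyct and Usp26 and the largest for Fmr1nb. The largest of these 12 adjusted p-values from limma was 1.4e-06. The share of all rows called higher was 7.99% for clone 1, 4.78% for clone 2, 6.91% for clone 5 and 6.85% for clone 6.

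The values that chose the genes are those of MPSVII ES and B6 Blu ES, which compare 2 ES lines of different origin. Fmr1nb averaged 7.27 in MPSVII ES and was 3.40 in B6 Blu ES, a log2 difference of 3.86 ± 0.30 (14.6-fold). Usp26 averaged 6.90 in MPSVII ES and was 3.78 in B6 Blu ES, 3.12 ± 0.24 apart (8.68-fold). Cyct averaged 9.99 in MPSVII ES and was 7.13 in B6 Blu ES, 2.85 ± 0.27 apart (7.22-fold).

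Among the 14807 genes these differences held ranks 1, 4 and 6. The rule gave no numerical threshold. The gene just after Cyct was Serpinb6c, a serine protease inhibitor of the serpin family, at 2.69, and the genes of ranks 2, 3 and 5 were Edf1 at 3.44, Hormad1 at 3.34 and Smc1b at 2.89. Edf1, a transcriptional coactivator, was named after its values had been seen. Of all rows, 0.132% were called higher and 0.072% lower in MPSVII ES than in B6 Blu ES, and 40.1% had both MPSVII ES arrays above the B6 Blu ES array.

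The 3 genes differed in how B6 Blu ES stood to MEF. On the log2 scale from the MEF mean up to the mean of the 10 clone and MPSVII ES arrays, B6 Blu ES stood 68.6% of the way for Cyct and 19.3% for Usp26. For Fmr1nb it stood 0.60 log2 units below the MEF mean. Both of these Fmr1nb signals are low, B6 Blu ES has 1 array, and no measure of background is at hand. Ranked within its own array, Cyct on the B6 Blu ES array was above 92.9% of the rows tested, against 7.38% and 4.46% on the MEF arrays. Usp26 was above 38.2% of rows on the B6 Blu ES array, against 18.6% and 20.3% in MEF. Fmr1nb was above 28.7% of rows on that array, against 40.7% and 41.1% in MEF. On the clone and MPSVII ES arrays the 3 genes stood above 88.8% of rows or more.

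The clone arrays, which the selection rule did not use, were also all above the B6 Blu ES array for each of the 3. The clone mean exceeded B6 Blu ES by 2.23 ± 0.24 for Cyct, 4.86 ± 0.26 for Fmr1nb and 3.43 ± 0.21 for Usp26 on the log2 scale. These differences share the B6 Blu ES array with the choice and carry no test. The lowest of the 10 clone and MPSVII ES arrays exceeded B6 Blu ES by 3.70 for Fmr1nb, 2.74 for Usp26 and 1.01 for Cyct. By that margin the genes ranked 1, 2 and 10 of 14807. Of all rows, 8.11% had every clone array above B6 Blu ES. Without clone 2 the clone mean exceeded B6 Blu ES by 2.63 for Cyct and 3.63 for Usp26.

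Against MPSVII ES the clones differed gene by gene, again as a description without a test. The clone mean of Fmr1nb was higher by 1.00 ± 0.19, and its 8 clone arrays did not overlap the 2 MPSVII ES arrays. That was so in that direction for 2.28% of all rows. Other X-linked rows were also called higher in the clones more often than autosomal rows. Limma called 3.18% of 471 X-linked rows other than Fmr1nb and Usp26 higher, against 0.243% of 14404 autosomal rows. The clone mean of Usp26 was higher by 0.31 ± 0.15, with overlapping arrays. The clone mean of Cyct was lower, at -0.62 ± 0.18, also with overlap, and without clone 2 this difference was -0.22. Against MEF, MPSVII ES was higher by 7.98 for Cyct, 3.26 for Fmr1nb and 3.92 for Usp26.

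Differences among the clones bear on whether lines reprogrammed in the same way carry the same levels. Cyct and Usp26 passed the moderated F test of limma over the 4 clones. The clone means of Cyct spanned 2.12 log2 units (4.36-fold, adjusted p = 0.00324), between clone 6 at 10.28 and clone 2 at 8.16. Those of Usp26 spanned 1.04 (adjusted p = 0.016), between clone 5 at 7.66 and clone 2 at 6.62. Those of Fmr1nb spanned 0.97 and did not pass the same test (adjusted p = 0.117). After quantile normalization the Fmr1nb span was 1.54 and passed (limma, adjusted p = 0.0058). Of all rows, 9.01% were called among the clones.

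Neither call held without clone 2. The span without it was 0.95 for Cyct (limma, adjusted p = 0.177) and 0.70 for Usp26 (adjusted p = 0.178). Leaving out clone 2 replicate 2 alone ended the Usp26 call, with a span of 0.94 and an adjusted p of 0.0698 in limma.

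Set against the mean of the other 3 clones, clone 2 was lower for Cyct, at -1.61 ± 0.18 (limma, adjusted p = 0.000934). For Usp26 it was lower, at -0.79 ± 0.16 (limma, adjusted p = 0.01). For Fmr1nb it was higher, at 0.72 ± 0.20 (limma, adjusted p = 0.0428), a call lost in 10 of 12 refits with 1 array omitted each. The Usp26 value of clone 2 was -0.14 after quantile normalization and -0.20 after cyclic loess, and passed in neither. It was also lost without clone 2 replicate 2 (limma, adjusted p = 0.103). The 2 arrays of clone 2 had the narrowest spread of signals, with interquartile ranges of 1.88 and 1.70 against 1.95 to 2.83 on the other arrays. Clone 2 also had the lowest medians of the 14 pluripotency markers among the clones, 5.90 and 5.85 against 6.69 to 7.07 on the other clone arrays. Their part in these differences was not tested. In clone 2, 0.87% of all rows were called higher and 10.7% lower than in the other clones.

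Clone 6 was higher than the other clones for Cyct, by 1.23 ± 0.18 (limma, adjusted p = 0.0141), where 1.07% of all rows were called higher. The difference stayed at 1.21 without clone 6 replicate 1 and 1.24 without replicate 2, but neither passed (limma, adjusted p = 0.13 and 0.184). The call was also lost when all rows of the table were tested (limma, adjusted p = 0.0522). Clones 1 and 5 did not pass for any of the 3 genes on the deposited values, where 0.582% of all rows were called in clone 1 and 0.366% in clone 5. After quantile normalization clone 1 was lower than the others for Fmr1nb, at -0.88, and for Usp26, at -0.71 (limma, adjusted p = 0.0381 and 0.0385).

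**Figure D2:**
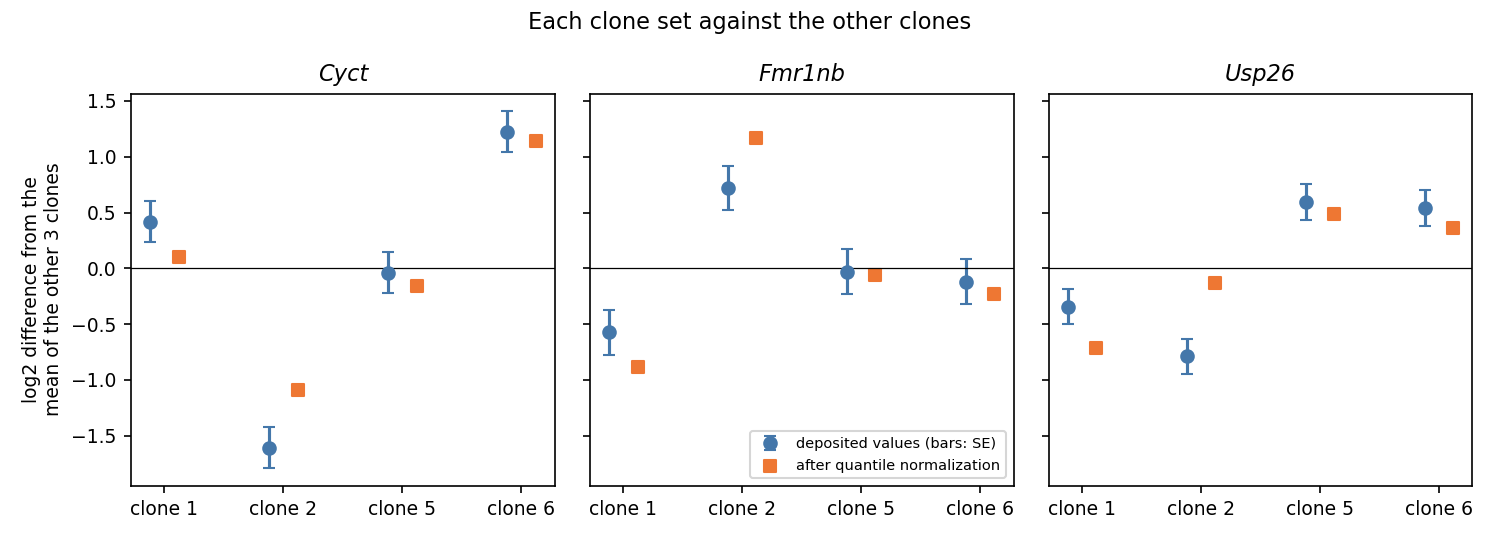
The log2 difference of each clone from the mean of the other 3 clones (vertical axis) is plotted for Cyct, Fmr1nb and Usp26, on the deposited values (circles, bars are standard errors) and after quantile normalization (squares). Clone 2 was lowest for Cyct, at -1.61 on the deposited values, and highest for Fmr1nb, at 0.72.

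Across all 13 arrays, Pearson's r was 0.93 between Fmr1nb and Usp26, 0.92 between Cyct and Usp26 and 0.78 between Cyct and Fmr1nb. These values describe arrays that share lines and the contrast with MEF, and they include the ES arrays on which all 3 genes were selected. Over the 8 clone arrays alone r was -0.24 between Fmr1nb and Usp26, 0.73 between Cyct and Usp26 and -0.59 between Cyct and Fmr1nb.

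The genes whose 13 values were most like those of each testis gene were read off by r among 1930 rows with line means spanning at least 2 log2 units. For Usp26 they included Smc1b at 0.97, Iqcg, a gene of the sperm flagellum, at 0.95, and Ooep, a maternal factor of the egg, at 0.94. For Fmr1nb they included Smc1b at 0.95, Serpinb6c at 0.94 and Usp26. For Cyct all 5 stood at 0.98. They were Mtf2, a subunit of Polycomb complex 2, Sgo1, which protects cohesin at centromeres, and Fbxo5, an inhibitor of the anaphase-promoting complex. The others were Tdrd12, a piRNA pathway gene, and the pluripotency factor Nanog. Between MPSVII ES and B6 Blu ES these genes differed by 0.68 to 1.34, against 2.85 for Cyct. Their clone means spanned 0.46 to 0.97 log2 units, against 2.12 for Cyct.

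Smc1b, whose promoter is printed above, had a signal of 5.70 and 6.33 in clone 1, 6.24 and 6.67 in clone 2, 6.87 and 6.65 in clone 5, and 6.20 and 6.81 in clone 6. It was 6.60 and 6.17 in MPSVII ES, 3.49 on the B6 Blu ES array, and 3.10 and 3.28 in MEF. Like Usp26, it was near the MEF level in B6 Blu ES and high in every other pluripotent line. Serpinb6c was 7.54 and 7.96 in MPSVII ES, 5.06 on the B6 Blu ES array, and 6.11 and 5.90 in MEF. Its B6 Blu ES value was below MEF, as for Fmr1nb, whose signals there were lower, at 3.40 against a MEF mean of 4.01. Nanog was 9.25 and 9.67 in MPSVII ES, 8.12 on the B6 Blu ES array, and 4.58 and 4.22 in MEF. Cyct, Usp26 and Smc1b shared that order.

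The list of testis genes of the X chromosome, to which Fmr1nb and Usp26 belong by position, has 22 other members with a row of 54 named. None was called between the ES lines by limma in either direction, where only 0.132% of all rows were called higher and 0.072% lower. At those shares a list of this size would mostly hold no call. At an unadjusted p under 0.05, 2 were higher and 1 lower, and the list median was 0.01 against 0.02 for all rows. Quantile normalization and cyclic loess called 1 of them higher. In the clones against MEF, 3 of the 22 rose, 1 fell and 18 did not pass, where 7.78% of all rows were called higher and 27% lower. The median difference was 0.06 against -0.09 for all rows. The 3 that rose were Magea4, a melanoma-antigen family member, by 1.64, Taf7l, a germ cell transcription factor subunit, by 1.05, and Tex11, a meiotic recombination gene, by 0.53, and Mageh1 was lower at -1.28. With each array centred on its median, 6 were called higher.

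Magea4 went the other way from the 3 testis genes between the ES lines. It averaged 2.18 in MPSVII ES and was 4.27 in B6 Blu ES, a difference of -2.09 ± 0.44 that did not pass (limma, adjusted p = 0.114). Taf7l averaged 4.85 in MPSVII ES and was 3.31 in B6 Blu ES, 1.54 ± 0.33 apart, also without passing (limma, adjusted p = 0.117). Tex11 averaged 3.42 in MPSVII ES and was 2.08 in B6 Blu ES, 1.34 ± 0.27 apart (limma, adjusted p = 0.0888).

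Cyct is a testis counterpart of a widely expressed gene, and 34 of 48 other genes listed here under that heading had a row. Between the ES lines none was called by limma, against 0.132% of all rows called higher and 0.072% lower. At an unadjusted p under 0.05, 2 were higher and 0 lower, and the list median was 0.02. In the clones against MEF 6 rose, 3 fell and 25 did not pass, against 7.78% of all rows called higher and 27% lower. Centring on the array medians gave 13 higher and 1 lower, while the count of all rows called higher went up to 3472, against 1297 on the deposited values. Cox7b2, a testis-enriched relative of a cytochrome c oxidase subunit, rose by 3.11, Pdha2, the testis form of a pyruvate dehydrogenase subunit, by 1.27, and Ldhc, the sperm lactate dehydrogenase, by 1.03. Vdac3, a channel of the outer mitochondrial membrane, was lower at -1.14.

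Cyct carries no test against the ES lines, and its clone mean differed by -0.62 from MPSVII ES and by 2.23 from B6 Blu ES. Cox7b2 was called higher in the clones than in each ES line. It averaged 4.99 in the clones and 3.29 in MPSVII ES, 1.70 ± 0.19 apart (limma, adjusted p = 0.00378), where 0.318% of all rows were called higher. It was 2.81 on the B6 Blu ES array, 2.18 ± 0.25 below the clones (limma, adjusted p = 0.00576), where 0.126% of rows were called higher in the clones. Between MPSVII ES and B6 Blu ES it differed by 0.48 ± 0.29 and did not pass (limma, adjusted p = 0.672).

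The partners of cytochrome c, among them the subunits of the oxidase that takes its electrons and the proteins of its apoptotic role, had 20 of 29 genes with a row. Against MEF, 0 were called higher in the clones and 4 lower on the deposited values, a share lower that is not above the 27% of all rows. Quantile normalization gave 8 higher and 1 lower, centring 3 and 1, and cyclic loess 4 and 4. Under these scalings all rows called higher numbered 2831 to 3472, against 1297 on the deposited values. The 4 called lower on the deposited values included the oxidase subunits Cox6b1 at -0.83 and Cox6a1 at -0.65. The others were Bak1, a pore-forming regulator of apoptosis, at -1.21 and Apaf1, the scaffold that cytochrome c activates, at -0.60. Hccs, which attaches haem to cytochrome c, averaged 6.30 in the clones and 6.21 in MEF and did not pass (limma, adjusted p = 0.709). Of these 20, none was called between the ES lines by limma, against 0.204% of all rows. At an unadjusted p under 0.05, 3 were higher. The somatic cytochrome c gene Cycs has no row of its own.

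Of the relatives and known partners of Usp26 and Fmr1nb, 14 of 18 had a row. In the clones against MEF 5 were called higher and 3 lower, against 7.78% and 27% of all rows, with 7 to 8 higher after quantile normalization or centring. Usp37, a deubiquitinase of the cell cycle, averaged 6.45 in the clones and 4.80 in MEF, a rise of 1.65 ± 0.16 (limma, adjusted p = 1.45e-05). Usp29 averaged 2.59 in the clones and 2.05 in MEF, 0.54 ± 0.24 apart, and did not pass (limma, adjusted p = 0.12). Between MPSVII ES and B6 Blu ES none of the 14 was called by limma, against 0.204% of all rows. At an unadjusted p under 0.05, 3 were higher. Usp37 differed there by 0.51 ± 0.25 and Usp29 by 0.87 ± 0.38.

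The germline list gathers genes known to be silenced by promoter methylation or by the Polycomb complex PRC1.6, and 36 of 51 had a row. It also holds genes known in ES cells, such as Zfp42, Lin28a and Dppa3. In the clones against MEF 18 rose, 1 fell and 17 did not pass, where 7.78% of all rows were called higher and 27% lower. The list median was 0.55 against -0.09 for all rows. Among them Hormad1, a protein of the meiotic chromosome axis, rose by 4.31, Smc1b by 3.24, the meiotic recombinase Dmc1 by 3.01 and the germ cell RNA helicase Ddx4 by 2.58.

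Between the ES lines 3 of the 36 were higher in MPSVII ES and none lower, against 0.132% of all rows called higher. Smc1b averaged 6.38 in MPSVII ES and was 3.49 in B6 Blu ES, a difference of 2.89 ± 0.35 (limma, adjusted p = 0.0134). Sycp3, a protein of the synaptonemal complex, averaged 6.69 in MPSVII ES and was 4.44 in B6 Blu ES, 2.25 ± 0.35 apart (limma, adjusted p = 0.0364). Ddx4 averaged 6.97 in MPSVII ES and was 5.10 in B6 Blu ES, 1.87 ± 0.26 apart (limma, adjusted p = 0.0222). At an unadjusted p under 0.05, 14 of the 36 were higher and 0 lower, and the list median was 0.20 against 0.02 for all rows. Without MPSVII ES replicate 1 none of the 3 calls was left, nor when all rows of the table were tested, and quantile normalization called 8.

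Hormad1, at 9.06 in MPSVII ES and 5.72 in B6 Blu ES, differed by 3.34 ± 0.83 and did not pass (limma, adjusted p = 0.173). The clones were also above B6 Blu ES for Smc1b, by 2.94 ± 0.30 (limma, adjusted p = 0.003), and for Dazl, an RNA-binding protein of germ cells, by 1.54 ± 0.22 (limma, adjusted p = 0.0257). Dazl averaged 4.93 in MPSVII ES and was 3.45 in B6 Blu ES, 1.48 ± 0.26 apart, and did not pass (limma, adjusted p = 0.0655).

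**Figure D3:**
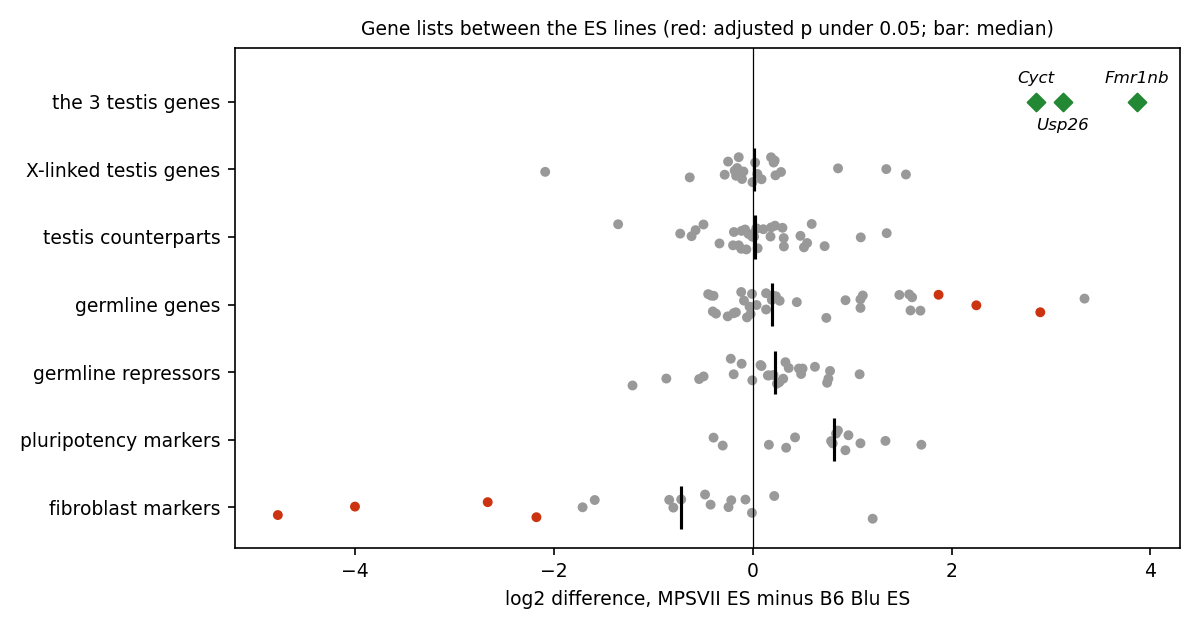
Each point is the log2 difference of 1 gene, MPSVII ES minus B6 Blu ES (horizontal axis), with the gene lists down the page, black bars at the list medians and red for an adjusted p under 0.05. Cyct, Usp26 and Fmr1nb, which were chosen for this difference and not tested, lay at 2.85, 3.12 and 3.86, and the medians of the X-linked and counterpart lists were 0.01 and 0.02.

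Repressors of germline genes had 26 of 30 members with a row. Between the ES lines limma called none of the 26, against 0.204% of all rows. At an unadjusted p under 0.05, 2 were higher and 2 lower. Quantile normalization called 2 of them lower, and centring and cyclic loess 1 each. The DNA methyltransferase Dnmt3a averaged 5.31 in MPSVII ES and was 6.52 in B6 Blu ES, a difference of -1.21 ± 0.26 that did not pass (limma, adjusted p = 0.115). The related enzyme Dnmt3b differed by -0.87 ± 0.34 and their cofactor Dnmt3l by 1.08 ± 0.44, and neither passed. In the clones against MEF 9 were called higher and 6 lower, against 7.78% and 27% of all rows. Under the other scalings 14 to 17 were higher and 4 lower, while all rows called higher numbered 2831 to 3472. Among them the chromatin remodeller Hells differed by 4.08, Dnmt3l by 3.14 and Dnmt3b by 2.60, while the PRC1.6 subunit E2f6 was lower at -1.98.

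The genes next to the 3 testis genes were compared between the ES lines as well. Limma called none of the 10 nearest genes with a row around Cyct, Fmr1nb or Usp26, against 0.204% of all rows. At that share so few genes would mostly hold no call. At an unadjusted p under 0.05 there were 2 higher and 1 lower around Cyct, 1 higher around Fmr1nb and 0 around Usp26. Around Cyct the differences ran from -2.11 for Fkbp7, a chaperone of the endoplasmic reticulum, to 0.88 for Nfe2l2, the regulator of the oxidative stress response. Around Fmr1nb they ran from -0.40 to 0.76 for Mtm1, a lipid phosphatase, and Fmr1 itself differed by -0.02 and its other neighbour Aff2 by -0.16. Around Usp26 they ran from -0.60 to 0.89 for the placental gene Plac1.

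In the clones against MEF, none of the 30 neighbours was called higher by limma, with 0 higher around Cyct, 0 around Fmr1nb and 1 around Usp26 at an unadjusted p under 0.05. Of the 10 around each gene, 7 were called lower around Cyct, 4 around Fmr1nb and 3 around Usp26, where 27% of all rows were called lower. Of 471 X-linked rows other than Fmr1nb and Usp26, 10.2% were called higher and 31.6% lower in the clones, against 7.7% and 27.6% of autosomal rows. Between the ES lines limma called 0 of these 471 in either direction, against 0.0972% of 14404 autosomal rows called higher and 0.0694% lower. At an unadjusted p under 0.05, 28 of the 471 were higher and 28 lower, against 896 and 439 of the 14404.

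**Figure D4:**
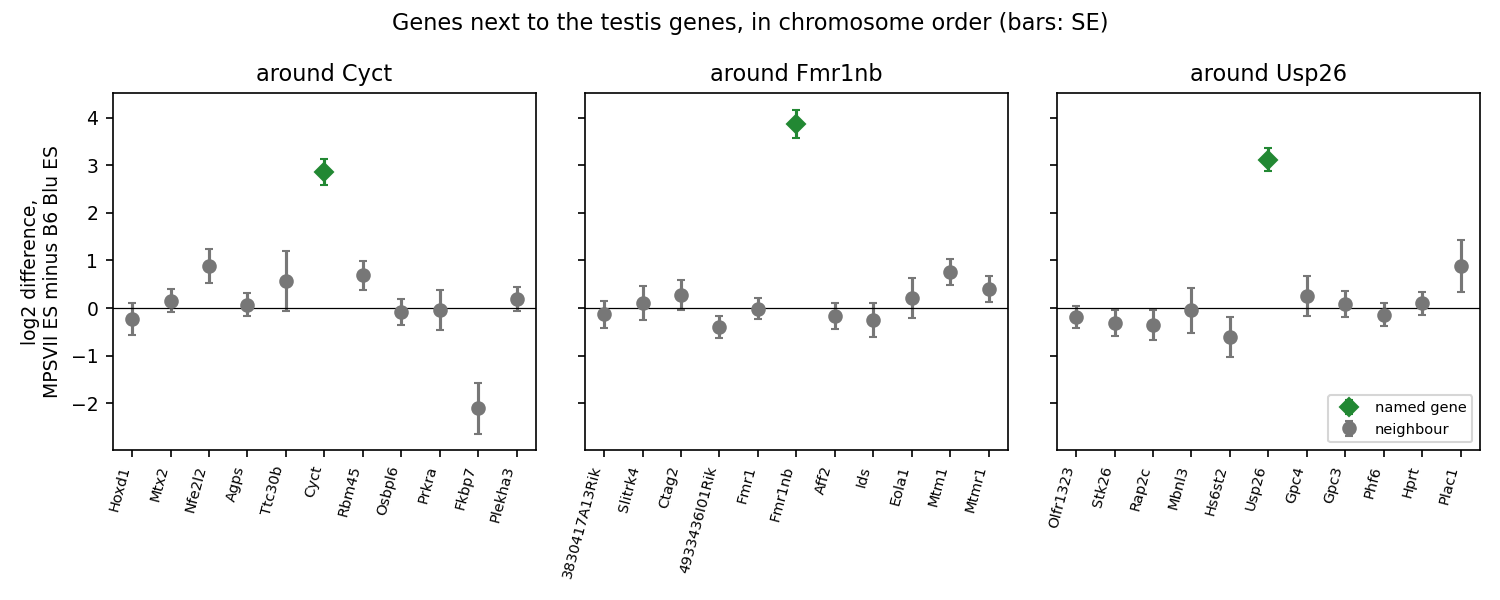
Log2 differences, MPSVII ES minus B6 Blu ES (vertical axis, bars are standard errors), are plotted for Cyct, Fmr1nb and Usp26 (diamonds) and the 5 nearest genes with a row on each side (circles), in chromosome order. Fmr1 and Aff2, on either side of Fmr1nb, lay at -0.02 and -0.16.

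Markers of other cells moved between the same lines. Summed linear signal of 17 fibroblast markers was 665.5 to 1578 in the clones, 717.3 to 897.7 in MPSVII ES, 2879 in B6 Blu ES and 14570 to 17100 in MEF. Between the ES lines 4 of the 17 were lower in MPSVII ES, where 0.072% of all rows were called lower. They were led by Acta2, a smooth muscle actin, at -4.78 and S100a4, a calcium-binding protein of fibroblasts, at -4.00. Summed signal of 14 pluripotency markers was 4104 to 8846 in the clones, 7140 to 9017 in MPSVII ES, 5030 in B6 Blu ES and 270.2 to 291.7 in MEF. None of the 14 was called between the ES lines by limma, against 0.204% of all rows. At an unadjusted p under 0.05, 6 were higher, and the list median was 0.82. Values from RMA have no true 0, so no marker could be read as absent. The part of these markers in the differences of the 3 testis genes was not tested. In the clones 12 of the 14 pluripotency markers rose against MEF and all 17 fibroblast markers fell. Of all rows, 7.78% were called higher and 27% lower in that comparison.

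MEF also had a summed signal of 14 macrophage markers of 10080 to 11790, against 248.8 to 382.8 in the clones, 258.1 to 274.4 in MPSVII ES and 228.1 in B6 Blu ES. All 14 fell in the clones, where 27% of all rows were called lower than in MEF. The MEF arrays thus carried macrophage as well as fibroblast markers.

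Markers of testis cells other than the 3 genes were followed as well. Of 14 spermatogonial markers 5 rose in the clones against MEF, led by Ddx4 at 2.58 and Dazl at 2.20, where 7.78% of all rows were called higher. Ddx4 was the 1 called higher in MPSVII ES than in B6 Blu ES, against 0.132% of all rows. Of 13 spermatid markers 1 was called higher in the clones and 2 lower, against 7.78% and 27% of all rows. That balance turned to 2 higher and 1 lower after quantile normalization and 4 and 1 after centring. Limma called none of them between the ES lines, against 0.204% of all rows, with 0 at an unadjusted p under 0.05. Of 13 Sertoli and Leydig cell markers limma called none in either comparison, with 0 higher and 1 lower at an unadjusted p under 0.05 in each. Centring called 1 of them higher in the clones.

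Only 2 of 7 sex chromosome markers, both Y-linked, had a row of their own. Eif2s3y, a Y-linked translation factor subunit, lay between 1.52 and 1.91 on the clone arrays, and was 6.41 and 6.31 in MPSVII ES, 4.80 on the B6 Blu ES array, and 1.79 and 1.81 in MEF. It was higher in MPSVII ES than in B6 Blu ES by 1.56 ± 0.20 (limma, adjusted p = 0.0197). The Y-linked demethylase Kdm5d lay between 1.94 and 2.33 on the clone arrays, and was 3.44 and 3.57 in MPSVII ES, 2.31 on the B6 Blu ES array, and 2.14 and 2.43 in MEF. Signal of these Y-linked genes was thus higher in MPSVII ES than in the clones, whereas Fmr1nb, Usp26 and Cyct were high in both.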

How the data were processed

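The authors deposited log2 values from RMA, run in Affymetrix Expression Console, per the submitters' processing notes; versions are not given in the sources used here. RMA corrects background, makes probe distributions alike and summarises probes by median polish. Differences between array signals can be smaller than those in RNA. Array medians still lay between 3.97 and 4.45, and replicate arrays correlated at 0.96 to 0.98. No detection calls were used, and the small number of arrays limits the precision.

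Of 23238 rows, 6577 without a gene in the annotation were taken as array controls and left out, which left 16661. No file names them as controls, and counts of calls between the ES lines depend on leaving them out. A single gene symbol stands on 14939 of them, more than 1 on 989 and none on 733. By Entrez number, 14881 single-gene rows were matched to RefSeq GRCm38.p6, with 0 symbols changed. In R 4.3.3, limma 3.58.1 (lmFit, then eBayes) fitted 1 mean per line to all 13 arrays, with clones weighted equally and Benjamini-Hochberg adjustment over all rows. Errors are standard errors. The script was tested on simulated data.

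The 3 genes and all lists were chosen with earlier results of these data known. Named genes were the 3 genes, 5 neighbours on each side, the 5 rows of highest r with each, up to 4 called genes of largest difference per list, and a few set genes such as Hccs, Usp37, Fmr1, Eif2s3y and Dnmt3a. Alternatives covered scaling, row filters, array weights, the variance prior, a replicate block and leaving out arrays. Same-numbered arrays did not deviate together: over 15 pairs of lines r ran from -0.24 to 0.24, so replicate numbers were not taken to pair arrays.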

Additional observations from a re-analysis of the deposited data

Results flagged for a closer look

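The 4 clones differed by limma's moderated F test for 2 of the 3 testis genes. For Cyct the clone means spanned 2.12 log2 units (adjusted p = 0.00324), between 10.28 in clone 6 and 8.16 in clone 2. For Usp26 they spanned 1.04 (adjusted p = 0.016), between 7.66 in clone 5 and 6.62 in clone 2. Without clone 2 neither passed, with spans of 0.95 and 0.70.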

How the results depend on the processing

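Of the results for the 3 genes, every difference of the clones from MEF kept its direction and its call in all alternatives run. No other row of a single gene exists for them, so that alternative gave no value. Leaving out 1 array at a time gave 487 to 1352 rows called among the clones (1501 with all arrays), and for MPSVII ES minus B6 Blu ES 4 to 30 higher (22) and 2 to 19 lower (12). The lowest counts between the ES lines came without an MPSVII ES array. The Usp26 span among clones was 0.94 to 1.18. The replicate block changed no call on the 3 genes except that of Fmr1nb in clone 2 against the other clones (0.72, adjusted p = 0.0634 in limma). Rows called higher and lower between the ES lines numbered 69 and 40 among rows with a line mean of at least 5, 54 and 33 with medians centred, 109 and 77 after quantile normalization, 60 and 46 after cyclic loess, 53 and 31 with array weights, and 7 and 3 over all rows of the table. Rows called higher in the clones than in MEF (1297) numbered 3333 after quantile normalization, 3472 after centring and 2831 after loess, and the median of all rows moved to 0.11, 0.17 and 0.05. Array weights gave 993 rows called among the clones, and testing all rows gave 927. The Fmr1nb span was 1.54 after quantile normalization and 1.72 after loess, and passed in both. MPSVII ES exceeded MEF for Usp26 by 4.13 after centring and 4.19 after loess, and exceeded B6 Blu ES by 3.61 for Fmr1nb and 2.84 for Usp26 after loess. Leaving out clone 2, a choice made after seeing the data, gave -0.22 for Cyct and 0.51 for Usp26 in clones minus MPSVII ES, and 2.63 and 3.63 in clones minus B6 Blu ES. It gave spans of 0.95 for Cyct and 0.70 for Usp26, 134 rows called among the clones and 19 lower between the ES lines. The causes of these changes were not tested. B6 Blu ES has 1 array, so its own spread is unknown, and the table carries no measure of background for the low signals of MEF and B6 Blu ES.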
